A study of Homo sapiens with 6 samples.

Results

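The genes described here make prostaglandin E2, sense it and break it down. They were chosen by gene symbol as 10 named rows of the expression matrix, which lists 16250 genes, and all 10 were found. In order of their place in the pathway they are PLA2G4A, PTGS1, PTGS2, PTGES, PTGES2, PTGES3, PTGER2, PTGER4, HPGD and PTGR1. HK-2 cells are human proximal tubule epithelial cells made to grow without limit in culture. The cells of every library carried the receptor NK-1R on a lentiviral pCDH vector with a CMV promoter and had been selected as a stable line with puromycin, so the controls overexpressed the receptor too. They received 20 µM of the neuropeptide substance P (SP) or PBS for 48 h, and RNA was sequenced from 3 SP-treated and 3 control libraries. Nothing in the sources used here says that the 3 libraries of a group came from separate cultures, so p-values measure only the spread between these libraries, which may be technical.

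As background, prostaglandin synthesis starts when the cytosolic phospholipase A2 encoded by PLA2G4A frees arachidonic acid from membrane lipids. The cyclooxygenases COX-1 (PTGS1, usually present at a steady level) and COX-2 (PTGS2, usually induced by stimuli) turn it into prostaglandin H2, from which the PGE synthases make prostaglandin E2. PTGES is the inducible membrane-bound synthase, PTGES2 a second membrane-associated synthase and PTGES3 a cytosolic synthase that also serves as the HSP90 co-chaperone p23. The receptors EP2 (PTGER2) and EP4 (PTGER4) raise cAMP through Gs, and in the kidney prostaglandin E2 acts on salt and water handling and on blood flow. HPGD oxidizes prostaglandin E2 and ends its activity, and PTGR1 reduces the product further and also handles leukotriene B4.

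Promoter sequences are shown for the cyclooxygenase and the PGE synthase with the largest ratios of mean FPKM among their kind, so that their elements can be read beside their expression. Each run holds the 250 bases before the RefSeq start on GRCh38.p14, 5′ to 3′ on the strand of the gene. Capitals mark matches to 7 motifs searched on both strands. TATAAA was taken as the TATA box. The cAMP response element was searched as TGACGTCA, and its half-site as CGTCA. An AP-1 site was searched as TGANTCA and a GC box as GGGCGG. The EGR site was GCGTGGGCG, and the NF-kappa B-type site was GGGA and CC with any 4 bases between them.
PTGS2 promoter, chr1:186680424-186680673, minus strand: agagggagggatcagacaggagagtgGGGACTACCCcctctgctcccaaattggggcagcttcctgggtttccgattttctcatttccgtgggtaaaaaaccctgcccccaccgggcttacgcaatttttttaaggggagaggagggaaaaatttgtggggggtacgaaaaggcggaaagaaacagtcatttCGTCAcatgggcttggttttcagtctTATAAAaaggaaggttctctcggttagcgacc
PTGES promoter, chr9:129753043-129753292, minus strand: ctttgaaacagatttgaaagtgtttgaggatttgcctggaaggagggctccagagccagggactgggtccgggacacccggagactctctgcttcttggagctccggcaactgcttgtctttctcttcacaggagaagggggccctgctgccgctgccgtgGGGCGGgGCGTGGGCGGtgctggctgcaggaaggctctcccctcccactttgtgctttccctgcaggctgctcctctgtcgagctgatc

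In the PTGS2 window the TATA box lay 32 to 27 bases before the start. The cAMP half-site lay 58 to 54 bases and the NF-kappa B-type match 224 to 215 bases before it. Of the 35116 promoter windows in the reference table, 10.7% held TATAAA, 21.2% held CGTCA and 22.6% held the NF-kappa B-type site. In the PTGES window GC boxes lay 89 to 84 and 78 to 73 bases before the start, and an EGR match at 82 to 74 bases overlapped the nearer GC box. GC boxes were present in 42.6% of all windows and the EGR match in 0.72%. All 10 genes had a window, with 14 windows in all because PTGS1, PTGES2 and HPGD have more than 1 start. A TATAAA match occurred in PTGS1 as well, on the opposite strand 208 to 203 bases before its first start. The EGR letters also occurred before the second start of PTGES2. CGTCA was found as well before PTGES3, PTGER2 and the second start of HPGD. The NF-kappa B-type letters recurred before PTGER4, PTGES3, the first start of HPGD and the second start of PTGS1. GC boxes recurred before PTGS1, PTGES2, PTGES3, PTGER2, PTGER4 and HPGD. PLA2G4A and PTGR1 held none of the 7 motifs, and no gene of the set held the whole cAMP response element or the AP-1 site, which were in 1.65% and 6.57% of all windows. These matches describe the letters of a window and are not evidence of binding.

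The values are FPKM, mapped fragments scaled to transcript length and to library size, so levels of different genes can be set side by side within a library. Reads behind a value are not known, so no counting error can be given. The FPKM of a library summed to between 672806.9 and 760888.9, and control replicate 1 had the highest sum. Among proximal tubule markers, PAX8 (96.05 to 121.78) and GGT1 (45.37 to 64.55) were expressed in every library. CUBN, SLC34A1, SLC5A2 and HNF4A were at or below 0.17 FPKM, and LRP2, SLC22A6 and SLC22A8 were not among the listed genes. Of 11 markers of other cells, 10 were listed. Their summed FPKM ranged from 116 to 121 in control and from 111 to 118 in SP-treated libraries, most of it from CD68 (105.97 to 114.17). The collagen gene COL1A1 of that list fell by 0.63 on the log2 scale (adjusted p = 0.00727, limma). The leukocyte marker PTPRC did not exceed 0.01 FPKM. TACR1, the gene of NK-1R, read 15.74, 25.82 and 32.98 FPKM in the controls and 78.47, 123.25 and 140.69 with SP, a log2 fold change of 2.17 with an adjusted p of 0.00207 (limma). SP treatment and the level of the receptor transcript thus differed together between the groups, and their parts in the results below cannot be told apart.

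The COX-1 gene rose, with a mean 1.47 times that of control cells. The COX-2 and phospholipase genes had mean FPKM of 0.05 and 0.09 in control and of 1.09 and 0.477 in SP-treated cells, and they called for a test without a filter. The membrane PGE synthase PTGES had a mean 1.96 times that of control cells, with groups that overlapped. The synthase PTGES2 and the reductase PTGR1 fell by small amounts, and no difference passed the test for the receptors or for HPGD. Genes with at least 0.5 FPKM in at least 3 libraries were tested with limma on log2(FPKM + 1), and 7 of the 10 passed that filter. Of these 7, 1 was higher with SP at an adjusted p under 0.05 (PTGS1), against 8.57% of the 12127 genes tested. Lower with SP were 2 (PTGES2 and PTGR1), against 12.0% of all genes tested, and 4 did not pass. Their median log2 fold change was -0.20, beside -0.05 over all genes tested. The direction split of all genes depended on scaling, with 1039 higher and 1457 lower as deposited but 1044 and 750 after equalizing FPKM totals and 1281 and 912 after median-ratio scaling. Quantile normalization gave 1183 higher and 1298 lower, which keeps the direction as deposited. None of the 7 combined an adjusted p under 0.05 with a 2-fold change. In bulk RNA, fewer cells expressing a gene and less RNA of it per cell cannot be told apart.

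**Figure D1:**
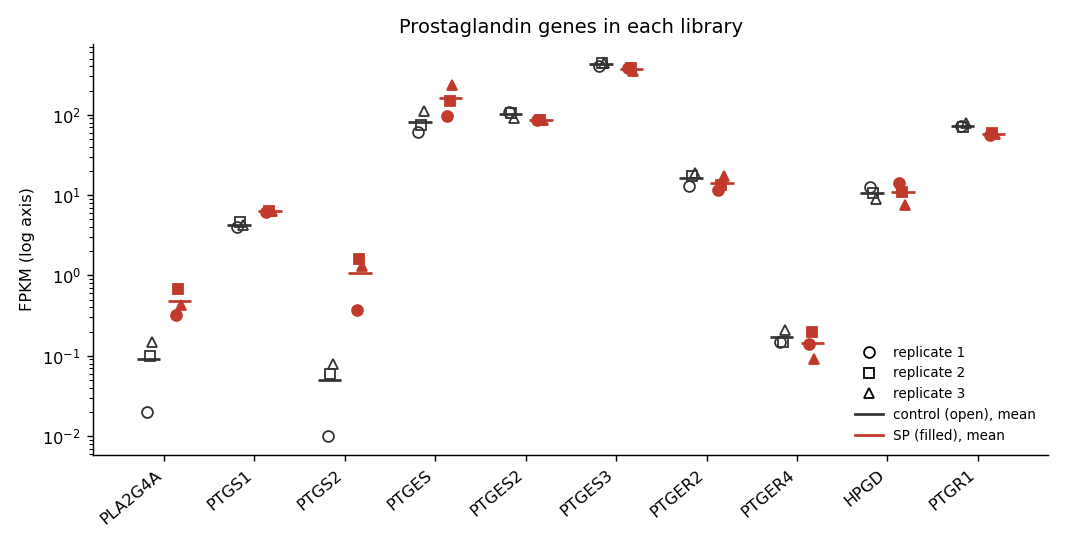
FPKM on a log axis of the 10 genes in each of 3 control (open) and 3 SP-treated (filled) libraries, with circle, square and triangle for replicates 1, 2 and 3 and a bar at each group mean. PTGS2 and PLA2G4A lie below 0.2 FPKM in every control library and above 0.3 in every SP library, while the groups of PTGER2, PTGER4 and HPGD overlap.

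Without any filter, the libraries of the groups did not overlap for 6 of the 10 genes. Those above every control library with SP were PLA2G4A, PTGS1 and PTGS2, where 13.0% of all 16250 genes behaved so. Those below were PTGES2, PTGES3 and PTGR1, where 20.8% of all genes did.

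PLA2G4A (chr1:186828953-186988981 of GRCh38, plus strand), the phospholipase that releases arachidonic acid, was almost silent in control cells. Its FPKM was 0.02, 0.10 and 0.15 in control replicates 1, 2 and 3 and 0.32, 0.68 and 0.43 in the SP replicates. All SP libraries were above all control libraries, with means of 0.09 ± 0.0656 and 0.477 ± 0.184 (SD, n = 3). The ratio of the means was 5.3. The gene was below the filter, and when every listed gene was tested its log2 fold change was 0.43 (95% interval 0.21 to 0.65, adjusted p = 0.0335). The pseudocount of 1 compresses changes at such levels, and with 0.1 in its place the log2 fold change was 1.62 (0.83 to 2.41, adjusted p = 0.026). Leaving out single libraries gave adjusted p-values from 0.0448 to 0.125, with 1 of 6 under 0.05.

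PTGS1 (chr9:122370530-122395703, plus strand) encodes COX-1 and was higher with SP. Control replicates read 4.01, 4.57 and 4.23 FPKM and SP replicates 6.15, 6.25 and 6.38. The lowest SP library was thus above the highest control library, and the spread within each group was small. The means were 4.27 ± 0.282 in control and 6.26 ± 0.115 in SP-treated cells (SD, n = 3). The log2 fold change was 0.46 (standard error 0.08, 95% interval 0.28 to 0.65, adjusted p = 0.00687). PTGS1 passed in the 14 alternatives that changed a single choice, with adjusted p-values from 0.00449 to 0.0383. With no filter and a library left out as well, the adjusted p was 0.0901 without SP replicate 2, 0.0626 without SP replicate 3, 0.0645 without control replicate 2 and under 0.05 otherwise.

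PTGS2 (chr1:186671791-186680427, minus strand) encodes COX-2 and showed the largest ratio of means. It read 0.01, 0.06 and 0.08 FPKM in the controls and 0.37, 1.59 and 1.30 with SP. Every SP library was above every control library, and SP replicate 1 was well below the other SP libraries. SP replicate 1 was also the lowest SP library for TACR1, PTGES, PLA2G4A and PTGS1. The same held for PTGER2 and PTGR1, whose SP means were below those of control. Whether these genes move together for a reason was not tested. The means were 0.05 ± 0.0361 and 1.09 ± 0.637 (SD, n = 3), a ratio of 21.7. Values are rounded to 0.01 FPKM, so the lowest control value is a single rounding step and the ratio is imprecise.

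Only 2 libraries held 0.5 FPKM or more of PTGS2, so the gene did not pass the filter. Testing every listed gene gave a log2 fold change of 0.94 (0.40 to 1.48, adjusted p = 0.0435), and the pseudocount of 0.1 gave 2.82 (1.68 to 3.95, adjusted p = 0.0146). With no filter and a pseudocount of 1, the adjusted p was 0.00938 without SP replicate 1 and between 0.111 and 0.161 without any other library. The log2 fold change of PTGS2 in those 5 settings was 0.76 to 0.96, beside 0.94 with all libraries. With no filter, 3 of the 10 genes were higher at an adjusted p under 0.05 (PTGS1, PTGS2 and PLA2G4A), against 5.13% of 16234 genes. The endothelial marker PECAM1 moved in the same range as these low genes, with 0.02 to 0.05 FPKM in the controls and 0.22 to 0.61 with SP, while VWF did not exceed 0.02 and CDH5 did not exceed 0.1 FPKM in any library.

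COX-1 remained the more abundant cyclooxygenase transcript in every library. The share of PTGS2 in the summed FPKM of both genes was 0.249%, 1.3% and 1.86% in the controls and 5.67%, 20.3% and 16.9% with SP. All SP shares were above all control shares. The PTGS2 to PTGS1 ratio differed by 4.10 on the log2 scale (exact permutation test, two-sided, p = 0.1, adjusted p = 0.2 over 4 ratios), where 0.1 is the smallest p that 3 against 3 libraries allow. With 1 added to each FPKM the difference was 0.48, since the control values of PTGS2 are close to 0. The ratio of PTGS2, the less abundant cyclooxygenase transcript, to HPGD was 0.000804, 0.00566 and 0.00893 in the controls and 0.0261, 0.146 and 0.171 with SP. These groups did not overlap either, and the log2 difference was 4.66 (exact permutation test, p = 0.1, adjusted p = 0.2), or 0.94 with 1 added to each FPKM. The mean of HPGD hardly differed between the groups, so this ratio mostly restates the low PTGS2 values. It does not measure synthesis against breakdown, since PTGS1 is left out of it.

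**Figure D2:**
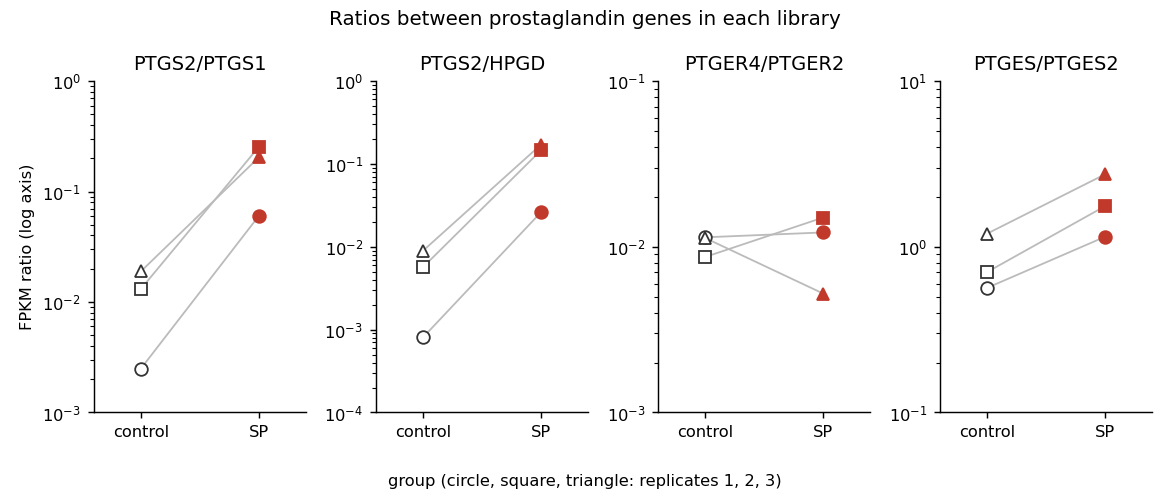
Ratios of FPKM between pairs of genes in each library on log axes, with control libraries open, SP libraries filled, and grey lines joining libraries of the same replicate number. PTGS2/PTGS1 and PTGS2/HPGD are higher in every SP library, PTGES/PTGES2 is higher within each replicate number but overlaps between groups, and PTGER4/PTGER2 shows no common direction.

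PTGES (chr9:129738331-129753047, minus strand), the membrane synthase that usually works with COX-2, was abundant in both groups. It read 61.73, 74.24 and 110.30 FPKM in control replicates 1, 2 and 3 and 97.77, 150.10 and 235.77 in SP replicates 1, 2 and 3. The groups overlapped, since control replicate 3 was above SP replicate 1. The means were 82.1 ± 25.2 and 161 ± 69.7 (SD, n = 3), a ratio of 1.96. The log2 fold change was 0.92 (0.22 to 1.62) and its adjusted p of 0.0659 missed the threshold.

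Within each replicate number PTGES was higher with SP, by 1.58-, 2.02- and 2.14-fold. The sources used here do not say what a replicate number stands for, and pairing the libraries by it is a reading of these same data. With the replicate number as a block the log2 fold change of 0.92 had an interval of 0.70 to 1.13. Its adjusted p was 0.00137 (limma), or 0.022 with no filter. PTGES then joined PTGS1, giving 2 members higher, against 9.76% of all genes tested with the replicate block. Without SP replicate 1 the unblocked adjusted p of PTGES was 0.0219, without control replicate 3 it was 0.0388, and leaving out any other library left it above 0.05, up to 0.16.

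PTGES2 (chr9:128120693-128128462, minus strand) was slightly lower with SP. It read 109.28, 105.46 and 91.79 FPKM in the controls and 85.37, 85.29 and 85.94 with SP. The SP libraries were nearly identical and lay below all controls. The means were 102 ± 9.2 and 85.5 ± 0.354 (SD, n = 3). The log2 fold change was -0.25 (-0.42 to -0.08) with an adjusted p of 0.047, close to the threshold. It did not pass after equalizing FPKM totals (adjusted p = 0.0696) or median-ratio scaling (0.122), and leaving out single libraries gave 0.0128 to 0.153. In all, it passed in 5 of 14 alternatives.

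PTGES3 (chr12:56663341-56688408, minus strand), the p23 co-chaperone and cytosolic synthase, had the highest level of the set. It read 406.86, 435.65 and 444.64 FPKM in the controls and 386.49, 380.03 and 352.12 with SP. The groups did not overlap, yet the log2 fold change of -0.20 (-0.36 to -0.05) missed the threshold with an adjusted p of 0.0668. The annotation names 5 pseudogenes after PTGES3, whose reads the quantification could share with it, so its level is uncertain.

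The PGE synthase genes can be set side by side as shares of their summed FPKM. PTGES held 10.7%, 12.1% and 17.1% of the summed FPKM of the 3 synthases in the controls and 17.2%, 24.4% and 35.0% with SP. The PTGES to PTGES2 ratio was 0.565, 0.704 and 1.2 in the controls and 1.15, 1.76 and 2.74 with SP. These ratios overlapped between the groups, with a log2 difference of 1.18 (exact permutation test, p = 0.2, adjusted p = 0.267).

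**Figure D3:**
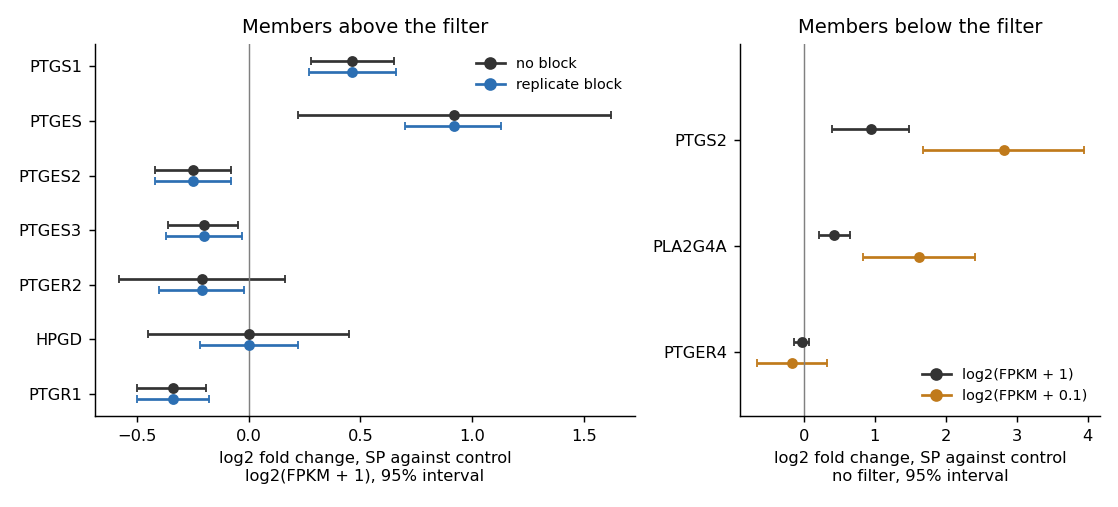
Log2 fold changes of SP-treated against control libraries with 95% intervals from limma, for the 7 genes above the filter (left, without and with a replicate block) and the 3 below it (right, tested with no filter and a pseudocount of 1 or 0.1). The interval of PTGES shrinks from 0.22 to 1.62 without the block to 0.70 to 1.13 with it, and the fitted change of PTGS2 moves from 0.94 to 2.82 with the smaller pseudocount.

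The Gs-coupled receptor genes showed no difference that passed the test. PTGER2 (chr14:52314305-52328606, plus strand), which encodes EP2, read 13.12, 17.31 and 18.66 FPKM in the controls and 11.49, 13.36 and 17.25 with SP. The groups overlapped, and the log2 fold change was -0.21 (-0.58 to 0.16, adjusted p = 0.373). Within each replicate number PTGER2 was lower with SP, at 0.876, 0.772 and 0.924 of the control value. With the replicate block the interval was -0.40 to -0.02 and the adjusted p of 0.0966 missed the threshold. PTGER4 (chr5:40679498-40693735, plus strand), which encodes EP4, read 0.15, 0.15 and 0.21 FPKM in the controls and 0.14, 0.20 and 0.09 with SP. It was below the filter, and its log2 fold change with no filter was -0.03 (-0.14 to 0.07, adjusted p = 0.649). The annotation names 2 pseudogenes after PTGER4. Of the summed EP2 and EP4 FPKM, EP2 made up between 98.5% and 99.5% in every library. The PTGER4 to PTGER2 ratio differed by -0.08 on the log2 scale (exact permutation test, p = 1, adjusted p = 1).

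HPGD (chr4:174490177-174523154, minus strand), the dehydrogenase that ends prostaglandin signals, differed by less than the spread between libraries. It read 12.44, 10.61 and 8.96 FPKM in the controls and 14.16, 10.92 and 7.61 with SP. The SP libraries spanned the whole range of the controls, with means of 10.7 ± 1.74 and 10.9 ± 3.28 (SD, n = 3). The log2 fold change was 0.00 (-0.45 to 0.45, adjusted p = 0.998). In both groups the library with the most PTGES had the least HPGD and the library with the least PTGES had the most HPGD. This restates that PTGES rose and HPGD fell with the replicate number in each group. The pair was picked after the values were seen, and a relation between the genes was not tested.

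PTGR1 (chr9:111549722-111599893, minus strand), the reductase downstream of HPGD, fell with SP. It read 71.43, 69.77 and 78.58 FPKM in the controls and 55.69, 59.35 and 57.39 with SP. All SP libraries were below all controls. The means were 73.3 ± 4.68 and 57.5 ± 1.83 (SD, n = 3), a ratio of 0.785. The log2 fold change was -0.34 (-0.50 to -0.19, adjusted p = 0.0107). It passed in 13 of the 14 alternatives that changed a single choice and missed the threshold after equalizing FPKM totals, with an adjusted p of 0.0662. With no filter and a library left out as well, it passed only without control replicate 3 (adjusted p = 0.0388), and the other 5 settings gave 0.0551 to 0.0858.

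The order of levels differed between the groups in its middle and at its low end. In control cells PTGES3 (mean 429 FPKM) led, followed by PTGES2 (102), PTGES (82.1) and PTGR1 (73.3). PTGES overlapped with both PTGES2 and PTGR1, so its place is not resolved, while every PTGES2 library was above every PTGR1 library. Then came PTGER2 (16.4), HPGD (10.7) and PTGS1 (4.27), each apart from the next. PTGER4 (0.17), PLA2G4A (0.09) and PTGS2 (0.05) closed the order with overlapping neighbours. In SP-treated cells PTGES3 (373) again led, and PTGES (161), PTGES2 (85.5) and PTGR1 (57.5) followed without overlap. PTGER2 (14.0) and HPGD (10.9) overlapped, PTGS1 (6.26) stood apart, and PTGS2 (1.09) and PLA2G4A (0.477) overlapped with each other and lay above PTGER4 (0.143).

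The wider pathway was read from 6 lists of general knowledge with 93 genes, of which 83 were listed and 59 passed the filter. Of these 59, 10 were higher with SP and 5 lower at an adjusted p under 0.05, and 44 did not pass, against the same 8.57% and 12.0% of all genes. Their median log2 fold change was -0.07.

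Arachidonate release and reuse gave 4 higher and 1 lower of 14 tested, against 8.57% and 12.0% of all genes tested. MGLL, the lipase that frees arachidonic acid from monoacylglycerol, read 37.7 ± 4.54 FPKM in control and 86.7 ± 5.99 in SP-treated cells (SD, n = 3), with a log2 fold change of 1.18 and an adjusted p of 0.000319. It was the only gene of these 59 to pass a 2-fold change with that test. ACSL4 (0.49, adjusted p = 0.00485) and MBOAT7 (0.35, adjusted p = 0.0164, up to 0.0533 in alternatives), which activate arachidonate and return it to phospholipid, were also higher on the log2 scale. The phospholipase PLA2G4C (0.42, adjusted p = 0.0481) had a mean of 0.353 FPKM in control and 0.807 in SP-treated cells, and its adjusted p reached 0.135 in alternative settings. It met the filter through the SP libraries, where it is high, so its place among the 4 is not support for the list. ANXA1, which encodes annexin A1, a protein known to restrain phospholipase A2, fell by 0.48 on the log2 scale (adjusted p = 0.00618).

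None of the 6 tested synthases for other prostanoids passed in the main fit, which was limma on all libraries without the replicate block. With the block 2 of them did, where 1184 of all 12127 genes tested were higher and 1589 lower. They were TBXAS1, the thromboxane synthase (log2 fold change 0.28, adjusted p = 0.0456), and AKR1C3, which makes prostaglandin F (-0.40, adjusted p = 0.0355). In other alternatives, without the block, the adjusted p went down to 0.0289 for TBXAS1 and 0.0238 for AKR1C3. PTGDS, another of the 6, had an adjusted p of 0.25 in the main fit, 0.278 with the block and 0.0416 at the lowest. AKR1C3 had means of 0.917 FPKM in control and 0.47 in SP-treated cells. It met the filter mostly through the control libraries, where it is high, so its call is not support for the list. The most abundant of the 6 were AKR1B1, which can make prostaglandin F2α (log2 fold change 0.07, adjusted p = 0.738), and CBR1, a carbonyl reductase that acts on prostaglandin E2 (0.06, adjusted p = 0.652). Among the 3 tested genes of further breakdown none passed, with log2 fold changes of -0.31 for CBR3 (adjusted p = 0.12) and -0.07 for PTGR2 (adjusted p = 0.67).

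Of 6 tested receptor and transport genes, 1 was higher and 2 were lower, against 8.57% and 12.0% of all genes tested. PTGER1, the Gq-coupled EP1 receptor, went from a mean of 1.10 to 1.82 FPKM (log2 fold change 0.42, adjusted p = 0.0361, up to 0.108 in alternatives). ABCC4, an exporter of prostaglandins and cAMP, fell by 0.41 on the log2 scale (adjusted p = 0.0108, up to 0.0569 in alternatives). PTGFRN, which binds the prostaglandin F2α receptor and inhibits it, fell by 0.34 on the log2 scale (adjusted p = 0.021, up to 0.121 in alternatives). In the lipoxygenase and epoxygenase branches, 1 of 9 tested genes was higher and 1 lower, against the same shares of all genes. ALOX5AP, which presents arachidonate to the lipoxygenase ALOX5, was higher by 0.52 on the log2 scale. Its adjusted p was 0.0481 (limma), 0.0659 with the replicate block and up to 0.153 in alternatives. ALOX5 itself did not exceed 0.08 FPKM in any library. LTA4H, the leukotriene A4 hydrolase, missed the threshold in the main fit (log2 fold change -0.30, adjusted p = 0.0505) and passed with the block (adjusted p = 0.0211). EPHX2, which hydrolyses the epoxides of arachidonate, fell by 0.51 on the log2 scale (adjusted p = 0.0104).

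Of 21 tested genes of the cAMP machinery used by EP2 and EP4, 4 were higher and 1 lower. Over all genes tested these shares were 8.57% and 12.0%, and no set test was run. PDE8A (log2 fold change 0.67, adjusted p = 0.00171) and PDE4A (0.76, adjusted p = 0.0105) encode phosphodiesterases that break down cAMP. RAPGEF3 (0.75, adjusted p = 0.0216, up to 0.0735 in alternatives) encodes the cAMP sensor EPAC, and CREM (0.33, adjusted p = 0.0356, up to 0.127) a cAMP-responsive transcription factor. PRKACA, a catalytic subunit of protein kinase A, fell by 0.28 on the log2 scale (adjusted p = 0.0287, up to 0.15 in alternatives). PRKAR1A, a regulatory subunit, missed the threshold in the main fit (0.30, adjusted p = 0.0743) and passed with the block (adjusted p = 0.0382). Its lowest adjusted p, 0.025, came from another alternative without the block.

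**Figure D4:**
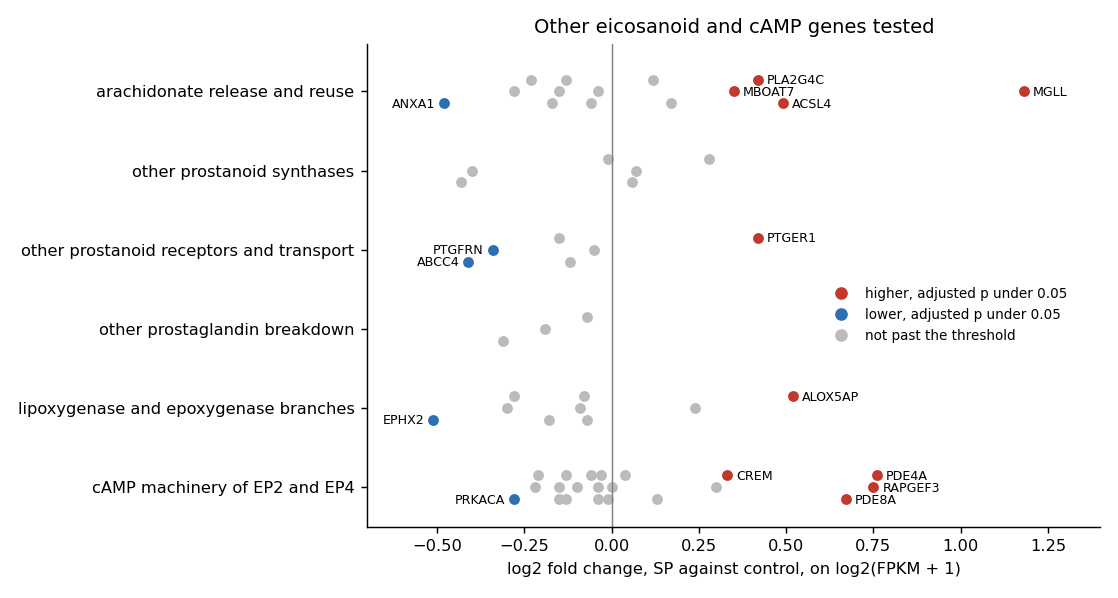
Log2 fold changes on log2(FPKM + 1) of the 59 tested genes in 6 other lists, with red for higher and blue for lower with SP at an adjusted p under 0.05 and grey for the 44 that did not pass. MGLL stands at 1.18, and the called genes other than MGLL lie between -0.51 and 0.76.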

How the data were processed

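The authors cleaned paired-end DNBSEQ reads, used HISAT for mapping to GRCh38.p13 and RSEM for quantification. Named in the notes on processing by the submitters are hg38, GRCh38.p13, Bowtie2 and HISAT2. The sources used here give no strand handling. The deposited values are FPKM per gene and library, rounded to 2 decimals, and the 6 per-sample tables equal the matrix. FPKM is relative to each library's total, so abundant genes that change shift the others, and depth is unknown.

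The members and lists were chosen with earlier results of these data known. Genes at or over 0.5 FPKM in 3 or more libraries entered limma 3.58.1 (trend on the mean, R 4.3.3) as log2(FPKM + 1), two-sided, with Benjamini-Hochberg adjustment, after checking the fit on simulated data. The authors used DESeq2, which needs counts. A call was an adjusted p under 0.05. Ratios between members were compared by exact permutation. Named beside the members and TACR1 were, in each list, called genes (up to 5 a direction) or otherwise the 2 most abundant. Outside that rule and after their values were seen, PTGDS and 4 genes called with the block but not in the main fit were named.

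Alternatives were other pseudocounts, filters, scalings and thresholds, no trend, each library left out, and the replicate number as a block. Deviations from group means correlated positively between same-numbered libraries (r = 0.165, 0.223 and 0.17) and negatively between others (-0.148 to -0.0363). Such deviations cancel within a group by construction, so the negative values are not separate support. The numbers were taken to pair the libraries as a reading of these same data. Calls made only with the block rest on that reading. Settings without a filter combined with the pseudocount of 0.1, the block or left-out libraries were chosen after seeing the data. Gene positions are from GENCODE 29 on GRCh38, in which no member shares exon bases with another gene, and promoters from RefSeq. PTGR3 was matched by gene ID under the symbol ZADH2. Values after ± are SDs. Some marker genes are not reported here.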

Additional observations from a re-analysis of the deposited data

How the results depend on the processing

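Among all genes, 1039 higher and 1457 lower became 156 and 37 with a 2-fold requirement, 441 and 371 at an adjusted p under 0.01, and 506 to 1111 and 432 to 1407 with single libraries left out. The lower count was 750 with equal FPKM totals, 912 with median-ratio scaling and 1298 with quantile normalization. Members higher (1) became 3 with no filter, 2 with the replicate block, 0 with a 2-fold requirement and 1 to 2 with single libraries left out. Members lower (2) became 0 with equal totals, 1 without the trend, 1 with median-ratio scaling, 1 with no filter, 0 with a 2-fold requirement and 1 to 2 with single libraries left out. Other pathway genes higher (10) became 6 with no filter and 4 to 9 with single libraries left out. Those lower (5) became 3 with equal totals and 2 to 5 with single libraries left out. The cause of these shifts was not tested, apart from the settings that test fewer libraries or ask for more. The replicate block changed the call of no member but PTGES. No member with a call turned its direction in the settings run. Values without a call did, with log2 differences of HPGD from -0.19 to 0.21 and of the PTGER4 to PTGER2 ratio from -0.38 to 0.38. The balance of higher and lower calls over all genes turned with equal FPKM totals and median-ratio scaling but not with quantile normalization. FPKM gives no depth, and the control values of PTGS2, PLA2G4A and PTGER4 lie between 0.01 and 0.21 FPKM, near the rounding step of 0.01.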
